A study of Mus musculus with 2 samples.

Results

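CD antigens are proteins of the blood cell surface that were numbered as antibodies against them were grouped. The genes described here are the 82 on the array whose name is Cd followed by a number, with at most a letter and a digit after it, such as Cd44, Cd24a or Cd3e. They are measured by 131 of the 41174 probes. A probe was kept where its signal was well above background in the same dye on both arrays, which left 66 probes of 49 of the 82 genes, among 24430 kept probes of 16583 genes and transcripts in all. Cd200r1 and Cd200r3 also match the letters of the pattern but were left out by the choice of members. Cd200r3 had a log2 ratio of -1.39 on its brightest probe. Cd200r1 was not well above background after ETO2 siRNA on either array and was at least 1.149-fold lower there.

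RNA came from G1E-ER-GATA-1, a mouse erythroid line labelled GATA-1-null that carries GATA-1 fused to an estrogen receptor domain, so that β-estradiol activates it. One group had been given siRNA against ETO2, a corepressor encoded by Cbfa2t3, and the other control siRNA. Both groups were then kept in β-estradiol for 24 h, so neither shows the cells without active GATA-1. Each of 2 arrays set ETO2 siRNA RNA (Cy3, green) against control siRNA RNA (Cy5, red), with 1.2 µg of RNA per dye and no exchange of dyes, so a constant dye effect of a probe cannot be told apart from the siRNA.

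CD antigens have no common fold or pathway. On maturing red cells they include the complement shields CD55 and CD59, the signal CD47 that holds off phagocytes, and the adhesion receptor CD44, whose loss is used in mouse bone marrow to stage erythroblasts. Others are receptors of lymphocytes and myeloid cells, and tetraspanins that organise other membrane proteins. ETO2 acts in complexes with GATA-1 and TAL1 and holds back part of the erythroid programme.

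Both labels call the cells embryonic stem cells and the tissue erythroid. Of 8 embryonic stem cell markers, 7 were on the array and 2, Esrrb and Dppa5a, were kept, while Pou5f1, Nanog, Sox2 and Zfp42 were not. Of 12 erythroid markers, 11 were on the array, kept and higher after ETO2 siRNA, where 18.1% of all kept genes were higher. The log2 ratios of these markers ran from 0.25 (Klf1) to 2.88 (Slc4a1). Cbfa2t3 itself had 7598 and 7341 units in ETO2 siRNA cells on arrays 1 and 2, against 9952 and 10080 in control cells. Its log2 ratio was -0.42 ± 0.05 (SD, n = 2 arrays), or 74.6% of control (adjusted p = 1.01e-04), and -0.23 on a second probe. On the scanner software's processed signals it was -0.37 and missed the threshold (adjusted p = 0.0509), and with median centring it was -0.98, where the median of all genes was -0.31. Green (ETO2 siRNA) was well above background at 24481 and 23503 probes of the arrays, against 25976 and 24583 for red (control).

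All ratios below are log2 of ETO2 siRNA over control siRNA. Signals are normalized channel values in linear scanner units, which contain a constant added in the background correction, so they are set against the other channel of the same probe and never against another gene. A gene stands for its brightest kept probe and is called higher or lower where limma's Benjamini-Hochberg adjusted p over all kept probes was under 0.05. Alternatives named beside a result are the processed signals, corrected and dye-normalized by the scanner software, and median centring, which shifts each array by 1 constant in place of the loess curve over brightness. Median centring put the median of all kept genes at -0.31 and called 10795 of 16583 lower, so its calls and signs are to be read against that shift. As RNA was taken from whole cultures, fewer cells of a type and less RNA per cell cannot be told apart.

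Of the 49 genes, 7 (14.3%) were higher after ETO2 siRNA, against 18.1% of all kept genes, and 9 (18.4%) were lower, against 21.9%. By this count the CD antigens were not called more often than other genes. The same shares of all kept genes stand beside every count of a smaller group or marker list below. Their median log2 ratio was -0.05, beside -0.02 for all kept genes, and 33 of the 49 lay below 0 (67.3%), beside 54.0% of all. However, 8 of the 49, the called gene Cd247 among them, were kept through the control channel alone, a filter that favours ratios below 0. Over the 41 members well above background in both channels, 6 were higher and 8 lower, with a median of -0.026. Of all 15517 genes kept that way, 2917 were higher and 3463 lower, with a median of -0.012. All 7 higher members pass that filter, so the call lost among them was lost in the refit. Cd274, Cd81 and Cd44 were the largest falls, and Cd59b, Cd59a and Cd97 the largest rises. Of the 16 called genes, 15 changed by under 1.5-fold, as did 91.3% of all called genes. At 1.5-fold or more, 0 members were higher, against 1.69% of all genes, and 1 (2.04%), Cd274, was lower, against 1.79%. The count of 0 depends on the constant added in the background correction, since Cd59a and Cd59b had called log2 ratios of 0.68 and 0.66 without it and of 0.89 and 0.78 on the processed signals, all over 1.5-fold. The count of 1 moves too. Cd247 was called at -0.59 without the constant, and Cd44 at -0.60 on the processed signals, both over 1.5-fold. Shares of all genes at 1.5-fold are not given for these settings.

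The values of the 2 groups over both arrays did not overlap in 7 genes that were higher (14.3%, against 27.5% of all kept genes) and in 19 that were lower (38.8%, against 34.5%). Among those 19, Cd247, Cd226 and Cd209f were kept through the control channel alone, a filter that favours lower ratios. Over probes, 11 of 66 were higher (16.7%, against 18.7% of all kept probes) and 11 were lower (16.7%, against 20.7%). At an unadjusted p under 0.05 there were 18 member genes (36.7%), against 48.0% of all kept genes.

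**Figure D1:**
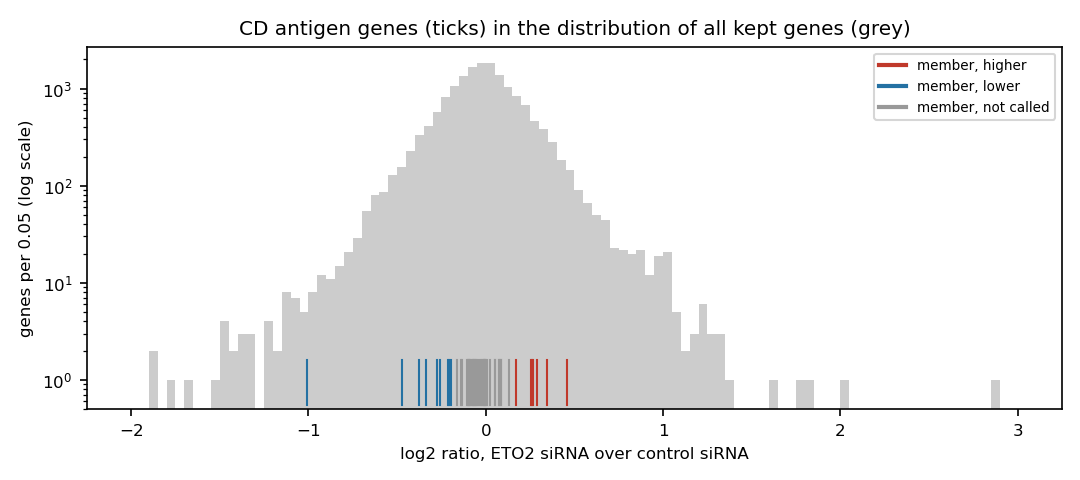
Log2 ratio of ETO2 siRNA over control siRNA on the horizontal axis and the number of kept genes per 0.05 on a log axis (grey bars), with 1 tick for each of the 49 CD antigen genes. The members' ticks lie within the bulk of all genes, with Cd274 at -1.01 the only one beyond 0.5 in size.

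Among the GPI-anchored members, Cd55 (decay-accelerating factor, which speeds the breakdown of complement convertases) and the mouse pair Cd59a and Cd59b (which block the last step of membrane attack) were all higher, on both kept probes of each gene, although Cd55 was not called on the processed signals and turned to -0.11 with median centring. Cd59b had 218 and 226 units in ETO2 siRNA cells, against 159 and 164 in control cells. The ETO2 siRNA values were above the control values on both arrays, with no overlap. The log2 ratio was 0.46 ± 0.0034 (SD, n = 2 arrays), or 138% of control (adjusted p = 4.39e-05), and 0.23 on the second probe (adjusted p = 0.0135), or 0.15 there without array 2.

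Cd59a had 115 and 120 units in ETO2 siRNA cells, against 91.0 and 93.8 in control cells. Again the groups did not overlap. Both genes are dim, so that the added constant of 50 units draws their ratios toward 0. The log2 ratio of Cd59a was 0.34 ± 0.01 (adjusted p = 5.35e-04), and 0.20 on its second probe (adjusted p = 0.0191). With no added constant the ratios were 0.68 for Cd59a and 0.66 for Cd59b.

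Cd59a and Cd59b are neighbours on mouse chromosome 2 with 0 annotated genes between them, so their probes were compared for shared sequence. Over the 4 pairs of a Cd59a and a Cd59b probe, the longest run in common was 5 to 7 bases of 60. The first 30 bases of each probe are shown, with the brightest probe of each gene first.
Cd59b, log2 ratio 0.46: gttagcctcaaatgctacaactgtttagac
Cd59b, log2 ratio 0.23: tcaacagtgttggaaactttcggattgtaa
Cd59a, log2 ratio 0.34: agtgagtgggccaggaggattctctttacc
Cd59a, log2 ratio 0.20: tgtcatggtgagatcattatggaccaatta

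Cd55 had 643 and 777 units in ETO2 siRNA cells, against 522 and 664 in control cells. Within each array the ETO2 siRNA value was the higher one, but across arrays the groups overlapped. The log2 ratio was 0.26 ± 0.05 (adjusted p = 4.02e-03). On the second Cd55 probe the values were 239 and 244 in ETO2 siRNA cells, against 209 and 198 in control cells, with no overlap and a log2 ratio of 0.25 (adjusted p = 6.80e-03). A related gene now named Cd55b, which the array lists under another name, had a log2 ratio of 0.05 (adjusted p = 0.595).

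Other GPI-anchored members went the opposite way or were not called, so 3 of the 8 kept genes of that group were higher and 2 lower, with 18.1% of all kept genes higher and 21.9% lower. Cd24a, the heat-stable antigen of mouse haematopoietic cells, had 36955 and 37784 units in ETO2 siRNA cells, against 43549 and 42205 in control cells. The groups did not overlap, and the log2 ratio was -0.20 ± 0.05 (adjusted p = 0.0226). Cd52, a short surface glycoprotein of leukocytes, had 156 and 152 units after ETO2 siRNA, against 182 and 174 in control cells, and a log2 ratio of -0.21 (adjusted p = 0.0169). Among those not called, the largest ratios were 0.08 for Cd177, a neutrophil antigen, and -0.06 for Cd14, the co-receptor for lipopolysaccharide. The median of the 8 genes was 0.04.

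Cd274 had the largest change of all kept members. It encodes PD-L1, the ligand of the inhibitory receptor PD-1 on T cells. Its signal was 1172 and 1248 units in ETO2 siRNA cells, against 2496 and 2375 in control cells. Every ETO2 siRNA value lay far below every control value. The log2 ratio was -1.01 ± 0.12 (SD, n = 2), which left 49.7% of control (adjusted p = 2.57e-08). The other costimulatory ligands kept, Cd80 and Cd70, had log2 ratios of -0.01 each and were not called. Thus 1 of 3 kept genes of this group was lower, where 21.9% of all kept genes were.

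**Figure D2:**
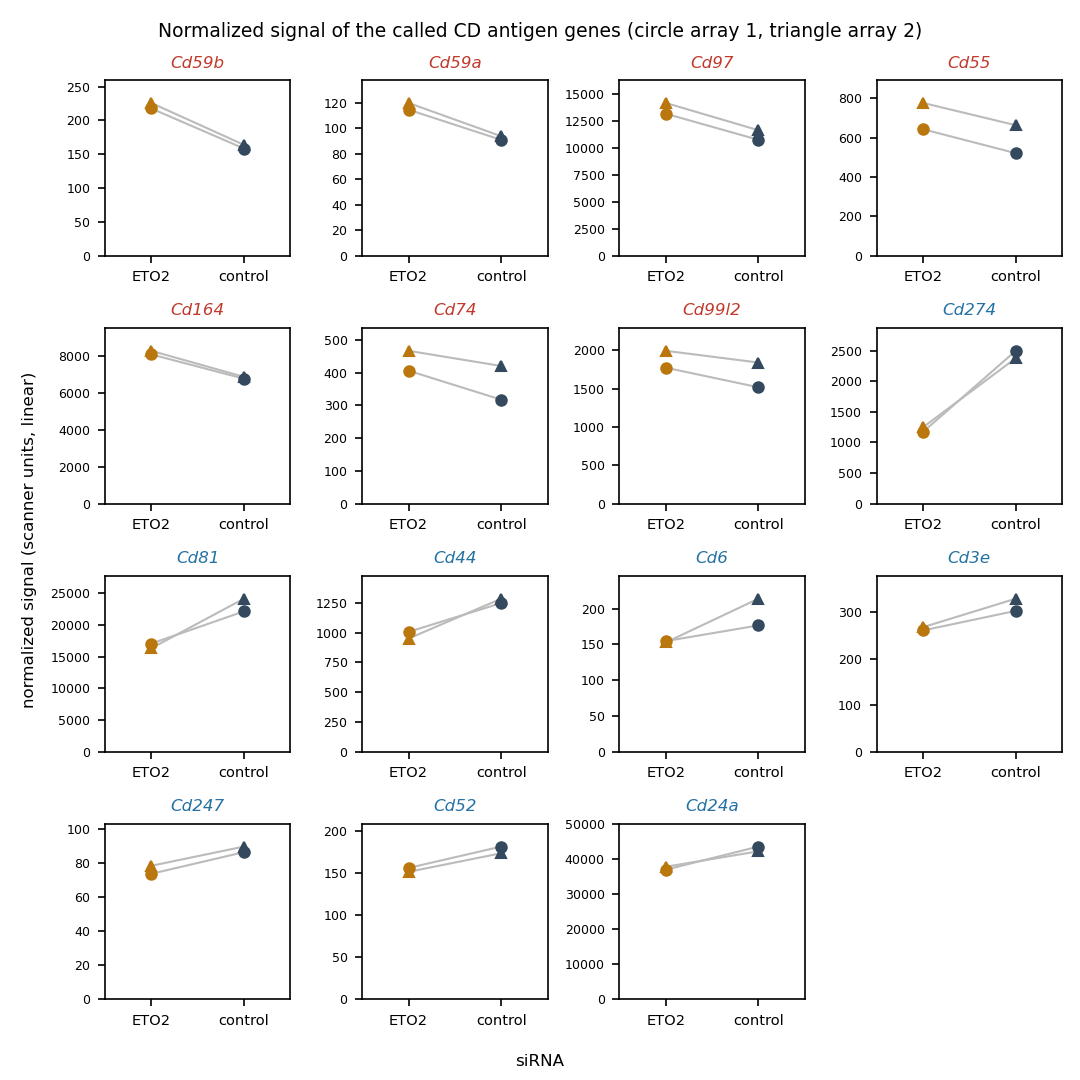
Normalized signal in linear scanner units, each panel on its own axis from 0, for 15 of the 16 called genes in ETO2 siRNA and control siRNA cells, with circles for array 1 and triangles for array 2 and lines joining channels of 1 array. Cd274 shows the widest gap (1172 and 1248 units in ETO2 siRNA cells, 2496 and 2375 in control cells), while Cd55, Cd74 and Cd99l2 are higher within each array but overlap across arrays.

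Among adhesion receptors and sialomucins, 3 of 10 kept genes were higher and 1 lower, where 18.1% of all kept genes were higher and 21.9% lower. The median of the 10 was -0.09. All 3 rises turned negative with median centring, where the median of all genes was -0.31. Cd44, the hyaluronan receptor, had 1006 and 950 units in ETO2 siRNA cells, against 1249 and 1286 in control cells. The groups did not overlap. The log2 ratio was -0.37 ± 0.09 (adjusted p = 3.47e-04). A second probe, printed as 10 spots per array, read 703 and 804 in ETO2 siRNA cells, against 1143 and 1155 in control cells, a log2 ratio of -0.61 ± 0.13 (adjusted p = 5.13e-06), so both Cd44 probes fell but by unequal amounts.

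Cd97, now named Adgre5, is an adhesion receptor of the G protein-coupled family that binds CD55. It had 13177 and 14177 units in ETO2 siRNA cells, against 10754 and 11643 in control cells. These did not overlap, and the log2 ratio was 0.29 ± 0.0064 (adjusted p = 2.03e-03). Cd164, the sialomucin endolyn of haematopoietic progenitors, had 8100 and 8296 units in ETO2 siRNA cells, against 6783 and 6883 in control cells. Its brightest probe had a log2 ratio of 0.26 ± 0.0095 (adjusted p = 3.94e-03), but its other probes read -0.10 and -0.03 and were not called. Cd99l2, a relative of the adhesion protein CD99, had 1772 and 1992 units after ETO2 siRNA, against 1517 and 1839 in control cells, which overlap. Its log2 ratio of 0.17 was close to the threshold (adjusted p = 0.0486), and its other probes read 0.12 and -0.08.

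Cd47 depended on the probe. The brightest had 38603 and 39874 units in ETO2 siRNA cells, against 41835 and 42369 in control cells, a log2 ratio of -0.10 that was not called (adjusted p = 0.222). With median centring this probe was called lower at -0.75, where the median of all genes was -0.31. A dimmer probe had 10158 and 10863 units in ETO2 siRNA cells, against 7731 and 8075 in control cells, and was called higher at 0.41 ± 0.02 (adjusted p = 1.24e-04). The other Cd47 probes read 0.01 and -0.10 and were not called. The first 30 of the 60 bases of each are shown because the same gene name gave both a call and no call. The array file assigns the first to a RefSeq transcript and the other 3 to a single cDNA record.
Cd47, log2 ratio -0.10, brightest: tatccaacctcctaggaataggtgaaggga
Cd47, log2 ratio 0.01: gcatagcaattaaaggtatgctatttgtca
Cd47, log2 ratio 0.41, called higher: agagttttcaaaaatctctttactgccaca
Cd47, log2 ratio -0.10: gcagaggcgtggcatctacagaagagcaga

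Among the remaining adhesion genes, Cd99 had the largest ratio, -0.13, and was not called. With median centring it was called at -0.48, where the median of all genes was -0.31. Cd226, an activating receptor of lymphocytes, was not well above background after ETO2 siRNA on either array and was not called. The stem cell sialomucin gene Cd34 was not well above background, so no level is given for it.

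**Figure D3:**
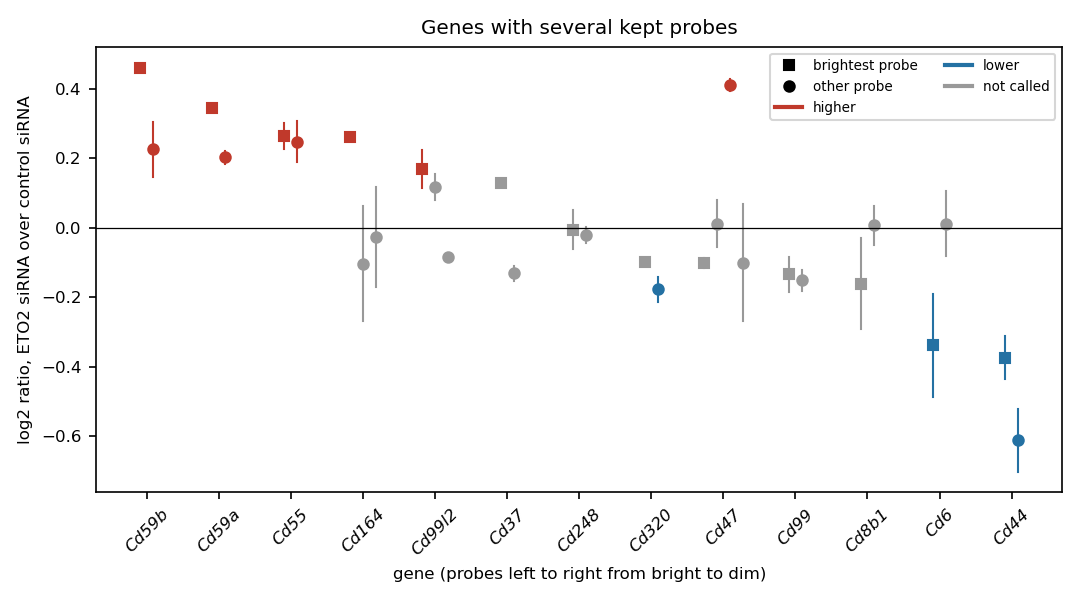
Log2 ratio of ETO2 siRNA over control siRNA for each kept probe of the 13 genes with several kept probes, with squares for the brightest probe, circles for the others and bars joining the values of both arrays. The probes of Cd59b, Cd59a, Cd55 and Cd44 were all called in 1 direction, while those of Cd164, Cd99l2, Cd47, Cd6, Cd37 and Cd8b1 lie on both sides of 0.

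Of the 4 kept tetraspanins, only Cd81 was called, and on the processed signals its call was lost. It was lower, as were 21.9% of all kept genes, while 18.1% were higher. CD81 sits in membrane microdomains. It had 17065 and 16329 units in ETO2 siRNA cells, against 22160 and 24166 in control cells. There was no overlap, and the log2 ratio was -0.47 ± 0.13 (adjusted p = 6.46e-05), or 72.1% of control. Cd37, a leukocyte tetraspanin, had probes of opposite sign, 0.13 and -0.13, and neither was called. Cd63, of lysosomes and granules, had a ratio of 0.05.

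Of 9 kept genes of the T cell receptor complex and its co-receptors, 3 were lower and 0 higher, with a median of -0.07, where 21.9% of all kept genes were lower and 18.1% higher. On the processed signals Cd247 of these 3 was still called and Cd3e and Cd6 were not. With median centring Cd247 was the one not called (-0.15, adjusted p = 0.0816), while Cd3e and Cd6 were called at -0.54 each. There the median of all genes was -0.31. Cd3e, a signalling chain of the T cell receptor, had 261 and 268 units in ETO2 siRNA cells, against 303 and 329 in control cells. The groups did not overlap, and the log2 ratio was -0.26 ± 0.06 (adjusted p = 4.97e-03). Cd6, a T cell adhesion receptor, had 155 and 153 units after ETO2 siRNA, against 176 and 214 in control cells, a log2 ratio of -0.34 ± 0.21 (adjusted p = 1.89e-03), while its second probe read 0.01. The Cd6 ratio was -0.49 on array 2 and -0.19 without it. Cd247, the zeta chain, was not well above background after ETO2 siRNA on either array. It was thus kept through the control channel alone, a filter that favours lower ratios. Its signals were 73.9 and 78.6 units in ETO2 siRNA cells and 86.6 and 89.9 in control cells. The estimate was 1.16-fold lower after loess (limma adjusted p = 0.0151), and the other Cd247 probes were not kept.

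Cd8b1 had the largest ratio of the uncalled T cell genes, -0.16 ± 0.19 (adjusted p = 0.0884), while its second probe read 0.01, and Cd4 had -0.07. With median centring the brightest Cd8b1 probe and Cd4 were called lower at -0.52 and -0.19. There the median of all genes was -0.31, below the Cd4 value, and 10795 of 16583 genes were called lower. Of 6 other T cell markers, 5 were kept, and 3 were lower, among them Lat (-0.68) and Zap70 (-0.31), while Lck and Ptcra were not called. Their summed signal was 1038 and 1134 units in ETO2 siRNA cells, against 1445 and 1560 in control cells, and Tcf7 was not well above background. The part of T cell transcripts in the 3 falls was not tested.

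Of 5 kept B cell and antigen presentation genes, 1 was higher and 1 lower, and neither was called on the processed signals. Among all kept genes, 18.1% were higher and 21.9% lower. Cd74, the invariant chain that guides MHC class II, had 406 and 466 units in ETO2 siRNA cells, against 317 and 420 in control cells. These overlap across arrays, and the log2 ratio was 0.25 ± 0.14 (adjusted p = 8.38e-03), or 0.15 without array 1. Cd72 and Cd40 had ratios of -0.09 and -0.07 and were not called. Of 6 B cell markers, 3 were kept, with sums of 455 and 458 units in ETO2 siRNA cells, against 386 and 402 in control cells. Vpreb1 was higher at 0.29, while Pax5 and Ms4a1 were not called. The part of B cell transcripts in these calls was not tested.

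None of the 7 kept scavenger, lectin and myeloid receptors was called by limma, where 18.1% of all kept genes were higher and 21.9% lower. Cd209f, a C-type lectin gene, was not well above background after ETO2 siRNA on either array. It was thus kept through the control channel alone, a filter that favours lower ratios. Its call as lower without the added constant (limma adjusted p = 0.0121) is subject to that filter, and its other probe was not kept. The ratios of the other 6 ran from -0.09 (Cd68, a macrophage antigen of lysosomes) to 0.09 (Cd36, a fatty acid and thrombospondin receptor). With median centring Cd68 was called lower at -0.28, where the median of all genes was -0.31. Of 8 granulocyte and macrophage markers, 4 were kept and 0 called, with Elane, Lyz2, Itgam and Adgre1 not well above background. The ectoenzyme gene Cd38 had a ratio of -0.05. Cd320, the receptor for transcobalamin-bound vitamin B12, had 196 and 185 units in ETO2 siRNA cells, against 210 and 198 in control cells. Its ratio of -0.10 was not called, while its second probe was called lower at -0.18 (adjusted p = 0.0379). With median centring the brightest Cd320 probe was called at -0.33, beside a median of -0.31 for all genes. Cd300d, now named Cd300c2, was in no group and had a ratio of 0.07.

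**Figure D4:**
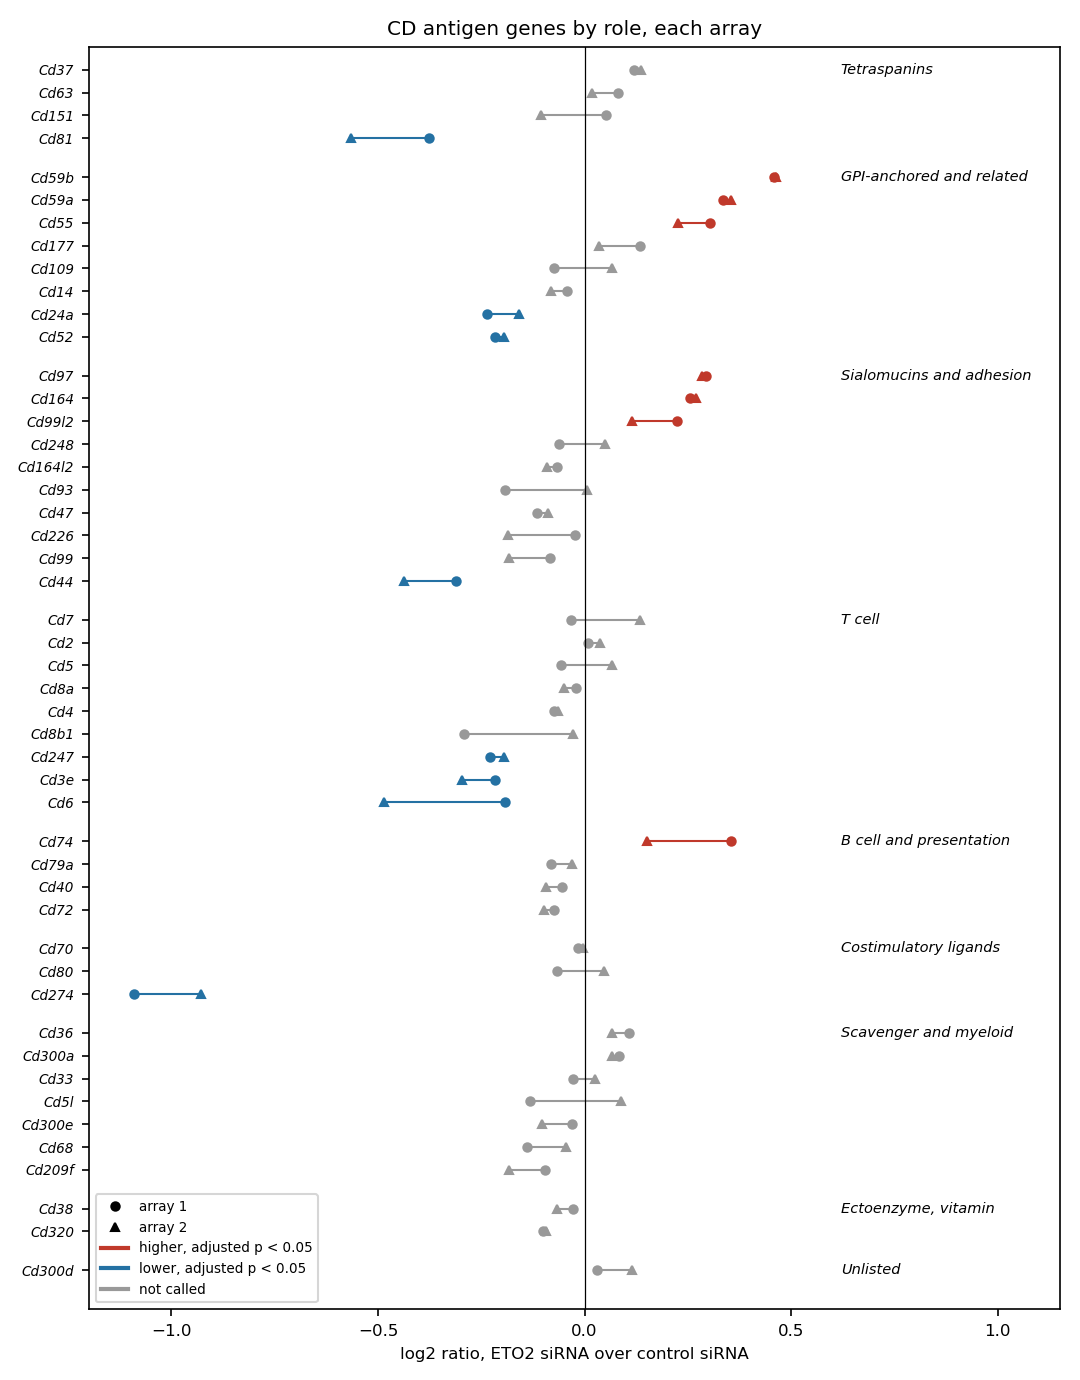
Log2 ratio of ETO2 siRNA over control siRNA for 48 of the 49 kept genes by role, circles for array 1 and triangles for array 2, red for genes called higher, blue for lower and grey for not called. The 3 complement shields (Cd59b, Cd59a, Cd55) lie at 0.26 to 0.46 (Cd55 turned to -0.11 with median centring), Cd274 near -1.01, and the scavenger and myeloid genes around 0.

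Of the 33 genes that were not kept, 8 had a probe well above background on 1 array: Cd22, Cd160, Cd3g, Cd69, Cd84, Cd207, Cd209e and Cd53. No level is given for these 33, which include Cd9, Cd34, Cd48, Cd86 and Cd163. All 49 kept genes were well above background in the control channel on both arrays. In the ETO2 siRNA channel 41 were so on both arrays, 4 on 1 array and 4 on neither (Cd247, Cd226, Cd93 and Cd209f). No kept member was saturated.

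CD molecules known by other gene names give the wider setting. Of 62 kept of 87 listed, 14 were higher and 13 lower, with a median log2 ratio of -0.00. The 14 include a gene whose brightest probe was saturated in the control channel, while its other kept probes were not called. Of all kept genes, 18.1% were higher and 21.9% lower. Among their largest rises were red cell membrane genes, at 2.88 for Slc4a1 (band 3), 0.76 for Rhag (a Rh complex protein, 0.48 without array 2) and 0.54 for Icam4 (a red cell adhesion molecule). Icam4 was not called on the processed signals (0.36, adjusted p = 0.0539) and read -0.01 with median centring. Their largest falls were -1.47 for the integrin Itgal, -0.98 for the stem cell factor receptor Kit, and -0.93 each for the lectin receptor Ly75 and the IgG receptor Fcgr3. Of 13 kept tetraspanins named otherwise, 1 was higher (Tspan33) and 2 were lower, Tspan14 at -0.79 and Tspan4 at -0.40. The brightest Tspan33 probe was saturated in the control channel on both arrays, so no fold is given for it. A dimmer Tspan33 probe, not saturated, was called higher at 0.33 (limma adjusted p = 8.48e-04). The same shares of all kept genes stand beside these counts.

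The bases before the start sites of the members with the largest called ratios, 3 falls and 2 rises, are shown because GATA-1 and the ETO2 complex bind GATA sites. Each window is the 250 bases upstream of the start in RefSeq GRCm38.p6, 5′ to 3′ on the gene's strand, and capitals mark GATAA or its reverse TTATC. Such letters stood in 22.6% of 32851 windows of all genes. They stood in 0 of 5 windows of members that were higher, 2 of 5 of those lower and 5 of 24 of those not called. These windows cover 5 of the 7 higher genes, 5 of the 9 lower and 21 of the 33 not called. Cd97, among the largest rises, had no window. Binding of GATA-1 or ETO2 was not measured, and a part of these letters in the calls was not tested. Cd274 had 2 matches, Cd44 had 1 and Cd81 had 0. The windows of Cd59a and Cd59b had none and were identical at 152 of 305 aligned columns (49.8%). That alignment allowed gaps and no unrelated pair was aligned beside it, so shared sequence cannot be judged from this share.
Cd59b, chr2:104070816-104071065, plus strand: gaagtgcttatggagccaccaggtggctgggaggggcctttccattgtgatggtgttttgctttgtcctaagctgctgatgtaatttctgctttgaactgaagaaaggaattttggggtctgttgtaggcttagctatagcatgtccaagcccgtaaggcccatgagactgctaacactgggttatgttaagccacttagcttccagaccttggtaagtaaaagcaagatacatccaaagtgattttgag
Cd59a, chr2:104095551-104095800, plus strand: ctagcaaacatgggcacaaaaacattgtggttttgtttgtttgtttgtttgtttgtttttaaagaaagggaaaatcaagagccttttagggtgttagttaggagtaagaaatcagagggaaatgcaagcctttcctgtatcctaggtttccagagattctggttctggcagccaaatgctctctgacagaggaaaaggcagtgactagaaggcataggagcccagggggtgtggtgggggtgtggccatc
Cd274, chr19:29367188-29367437, plus strand: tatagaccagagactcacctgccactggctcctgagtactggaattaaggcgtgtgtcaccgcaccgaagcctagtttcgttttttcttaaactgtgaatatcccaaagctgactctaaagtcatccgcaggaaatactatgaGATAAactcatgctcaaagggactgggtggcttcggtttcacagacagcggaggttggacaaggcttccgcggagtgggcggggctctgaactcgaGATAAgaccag
Cd81, chr7:143052500-143052749, plus strand: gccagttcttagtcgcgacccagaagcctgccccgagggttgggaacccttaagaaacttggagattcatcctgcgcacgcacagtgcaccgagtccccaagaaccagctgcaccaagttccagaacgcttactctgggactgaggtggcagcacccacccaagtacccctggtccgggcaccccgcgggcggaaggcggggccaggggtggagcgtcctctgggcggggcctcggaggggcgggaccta
Cd44, chr2:102901666-102901915, minus strand: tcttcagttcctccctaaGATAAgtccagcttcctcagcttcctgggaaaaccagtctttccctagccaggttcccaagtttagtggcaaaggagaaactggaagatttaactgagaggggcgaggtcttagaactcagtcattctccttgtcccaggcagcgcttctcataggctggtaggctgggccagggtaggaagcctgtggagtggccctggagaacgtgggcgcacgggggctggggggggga

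Of the 16 calls, 4 (Cd59a, Cd59b, Cd274 and Cd44) kept their direction and their side of the threshold under the 11 alternatives with a test. On the scanner software's processed signals 2 member genes were higher and 3 lower. Of 16 calls 11 were lost there, among them Cd81 (-0.32, adjusted p = 0.0734), Cd97 (0.13), Cd164 (0.06), Cd55 (0.12), Cd74 (0.14), Cd99l2 (0.02), Cd24a (-0.09), Cd52 (-0.33), Cd3e (-0.36) and Cd6 (-0.42). With median centring in place of loess, which put the median of all genes at -0.31, Cd97, Cd164, Cd55, Cd74 and Cd99l2 turned to -0.29, -0.28, -0.11, -0.07 and -0.28, and 2 members were higher and 20 lower. Relative to that shift the members' median was 0.17 above that of all genes.

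**Figure D5:**
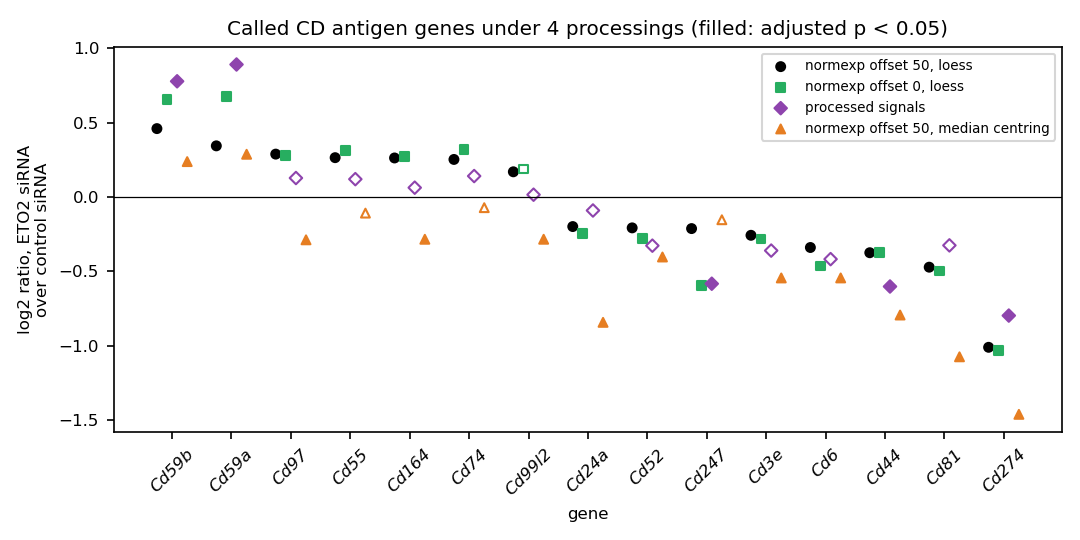
Log2 ratio of ETO2 siRNA over control siRNA for 15 of the 16 called genes under 4 processings, filled where limma's adjusted p was under 0.05. Cd59b, Cd59a, Cd44 and Cd274 keep their sign and filled symbols throughout, while the 5 other higher genes cross 0 under median centring.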

How the data were processed

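RNA of cells given ETO2 siRNA or control siRNA was read on 2 two-colour Agilent arrays. Spot and local background intensity, linear and unnormalized as deposited, came from version 9.1.3.1 of Agilent Feature Extraction on 1 slide and 1 scan day, per the file headers. The deposited processed intensity values had been background-subtracted and dye-normalized by that software, per the file headers, and the deposited log10 ratio is red over green. For the array design, the genome build was not given in the sources used.

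Mean signals were corrected by normexp (offset 50) and loess in limma 3.58.1 (R 4.3.3). Of 45018 features, 1639 controls and 10 and 4 outlier spots were left out. The sign was turned to ETO2 siRNA over control siRNA and tested against 0 with lmFit and eBayes, two-sided, adjusted over 24430 kept probes. Channel signals were scaled by Aquantile. eBayes added 14.4 prior degrees of freedom to 1 residual degree. A sign permutation of 2 arrays cannot give p below 0.5. Labels number the arrays as replicates without saying they are separate cultures, so p-values measure only the spread between these arrays. A bound is the control mean over the ETO2 siRNA mean, with a dim value replaced by that array's lowest well-above-background signal where this was higher. The number of arrays limits the precision.

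Names followed the array, updated by RefSeq GRCm38.p6 (24375 probes by accession, 6301 by symbol, 2426 by synonym, and 8072 kept their name). Named genes were all called members, up to 2 uncalled members of each role list with the largest ratios, members with probes of opposite sign and a call, Cbfa2t3, and the 4 largest rises and falls of other CD molecules and tetraspanins. Members and lists were chosen with earlier results of these data known. Lists of markers covered erythroid, embryonic stem, T, B, granulocyte and macrophage, mast, megakaryocyte and fibroblast cells. Of these, mast cell markers had 3 of 6 kept and 1 lower (Hdc), megakaryocyte markers 5 of 6 kept with 2 higher and 2 lower, and fibroblast markers 1 of 6 kept and 0 called by limma. A few genes that this rule names are not reported here, though counts and medians include them. The steps were tested on simulated data.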

Additional observations from a re-analysis of the deposited data

How the results depend on the processing

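No paired analysis was possible because the ratio within each array, which the test uses, already sets the siRNAs side by side and leaves no replicate block to add. Over the named genes other than Cbfa2t3 and 13 alternatives, 487 of 541 values kept their direction and side of the threshold (direction alone where 1 array was left out), 31 lost a call, 7 gained one and 16 changed sign. The cause was not tested in any of these. On the processed signals and in the authors' deposited table, members had 2 genes higher and 3 lower, other tetraspanins had 1 lower, Cbfa2t3 read -0.37 in both (adjusted p = 0.0509 and 0.0525), and Cd8b1 (0.094 in both) and Cd80 (0.042 in both) changed sign. All genes then had 949 higher and 993 lower calls on the processed signals and 906 and 920 in the deposited table, against 3003 and 3632. Median centring gave 462 higher and 10795 lower calls (4.10% higher, against 45.3%), 2 members higher and 20 lower with a median of -0.14, other CD molecules 8 higher and 36 lower, and other tetraspanins 0 higher and 7 lower by limma. Signs changed there for Cd74 (-0.071), Cd55 (-0.11), Cd164 (-0.28), Cd97 (-0.29), Cd99l2 (-0.28), Cd80 (0.025), Cd70 (0.046), Cd37 (-0.16) and Icam4 (-0.011). The members' median was -0.10 with offset 0, -0.0084 with no filter and -0.026 with both channels above background. Averaging a gene's probes gave 2 other tetraspanins higher, and Cd37 (-0.0016) and Cd47 (0.055) changed sign. With 1 array there is no test, and Cd80 ranged from -0.067 without replicate 2 to 0.046 without replicate 1. For dim genes near background the added constant draws ratios toward 0.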
